A study of Mus musculus with 60 samples.

Results

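Nascent RNA of imprinted genes was followed in mouse pluripotent embryonic stem cells, abbreviated mESCs, and in neural progenitor cells (NPCs) in which CTCF or the cohesin subunit RAD21 was removed by a degron. The members were 44 named imprinted genes, and a row of the count table was assigned to each symbol through its Ensembl transcript and the GENCODE M21 annotation. The rule gave 44 rows of 42 symbols, out of 27665 rows in the table, because Impact and Inpp5f each had 2 transcripts and Airn and Kcnq1ot1 are not analysed here. The rows fell into 16 imprinted domains, of which the Kcnq1 domain was the largest with 9 rows, followed by Snrpn-Ube3a with 6, Dlk1-Dio3 with 4 and Peg10-Sgce with 4.

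An imprinted gene is transcribed mainly from the copy inherited from one parent, and the choice is set by DNA methylation laid down in the egg or the sperm at an imprinting control region that can act on a whole cluster of genes. CTCF binds the unmethylated control region between H19 and Igf2 and blocks contact between Igf2 and its enhancers, which is the best known case of an insulator in mammals, and cohesin is the ring complex that extrudes chromatin loops and stops at CTCF. Many imprinted genes control fetal growth, placental function or brain function, and paternally and maternally expressed genes often lie side by side in one cluster. The counts do not separate the parental copies, so every value below is the sum over both.

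All cells derived from E14 mESCs. The control cells of every group also carry the degron fusion, so that no group has an untagged protein. In GFP-AID-Ctcf cells (called CTCF-AID here), CTCF was degraded with 500 µM of the auxin IAA for 6 h, in 2 nonstranded and 2 stranded libraries per arm. In GFP-FKBP12F36V-Ctcf (Y226A/F228A) cells (YF-AA), both alleles carry the tagged mutant CTCF, which was degraded with 200 nM dTAG-13 for 2 or 4 h, with 2 libraries per arm. In bTAG-ΔN-CTCF/dTAG-CTCF-ΔC cells (dN/dC), one allele makes CTCF without its N-terminal part, degraded by AGB1, and the other makes CTCF without its C-terminal part, degraded by dTAG-13. The dN/dC cells were given 100 nM of AGB1, dTAG-13 or both for 2 h according to the sample titles, with 2 stranded libraries per arm. The column names of the count table give 200 nM for the dTAG-13 of this line, so its dose is not settled. In GFP-AID-Rad21 mESCs (RAD21-AID), RAD21 was degraded with 500 µM IAA for 4 h, in a first set of 2 libraries per arm and in a larger set of 12 per arm, of which 1 per arm came from batch CC52 and 11 from batch CC53. NPCs were derived from the RAD21-AID mESCs and received 500 µM IAA during 1, 2 or 4 h. Others received A-485, which blocks the acetyltransferases p300 and CBP, at 10 µM during 1 h. The treatment text of 18 libraries, all those of CTCF-AID, YF-AA and the first RAD21-AID set, speaks of DMSO or triptolide, an inhibitor of transcription, while their titles name none. Whether any of these libraries received it is not given in the sources used here, and a value of these groups has to be read with that. There were 2 NPC libraries per arm, all of batch CC56, and one pair of NPC controls served every NPC comparison. Nothing in the labels ties the replicates to separate derivations of a line, so p-values measure the spread between these libraries, which may be technical.

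Library totals ran from 4027449 to 21898781 counts. In the untreated mESC libraries the 6 mESC markers summed to between 3250 and 4230 CPM (counts scaled to a common library total), against 11.3 and 15.4 CPM in the NPC controls, in which the 6 NPC markers summed to 339 and 384 CPM and the 4 neuron markers to 272 and 274 CPM. Ctcf RNA in the CTCF-AID nonstranded controls had a mean of 253 CPM and after IAA of 246 CPM, and Rad21 RNA was 268 CPM in the larger control set and 263 CPM after IAA. Both factors are removed as proteins, so their RNA does not check the depletion. The 2 stranded libraries of each CTCF-AID arm differed from one another far beyond counting noise, with a chi-square per degree of freedom of 38.2 for the controls and 31.1 after IAA, and so did the 2 NPC libraries at 2 h, with 10.1. In the other groups of 2 the value lay between 1.57 and 3.4, except for the nonstranded CTCF-AID pairs with 4.98 and 7.85, and pairs within the larger RAD21-AID set reached 13.6 for controls and 7.67 after IAA.

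The level of several members differed between library types. Among 34 members with a mean above 20 counts in either CTCF-AID control group, 6 had a stranded value under 50% of the nonstranded one, as did 10.9% of 15702 genes, and 3 lay under 25%, as did 6.52%. These 3 were Rtl1, a retrotransposon-derived gene of the placenta, Kcnq1, a potassium channel, and Nnat, a small membrane protein of neurons. Rtl1 was at 113 and 102 CPM in the nonstranded controls and at 0.514 and 0.246 CPM in the stranded ones, and at 0.25 and 0 CPM in the dN/dC controls, which are stranded too. Kcnq1 was at 129 and 130 CPM against 7.1 and 8.8 CPM, and Nnat at 12.1 and 13.8 CPM against 0.823 and 0.197 CPM. In none of the 3 did the library types overlap. The annotation has a gene on the opposite strand over 43.9% of the Kcnq1 body and over 100% of Nnat, which lies inside Blcap, but over 4.6% of Rtl1. Ndn, Tssc4 and Zrsr1 have such a gene over 100% of their bodies too, and their stranded values were 87%, 97.4% and 70% of the nonstranded ones. Mest, a hydrolase-like protein of growing tissue, was at 10.2 and 9.39 CPM nonstranded against 1.95 and 4.08 CPM stranded, and Gnas, a G-protein subunit, at 170 and 170 CPM against 76 and 68.8 CPM. What sets the difference was not tested, and since a nonstranded library cannot tell the strands apart, the Rtl1 values are called those of the interval below.

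The Rtl1 interval is shown with its microRNAs because its counts fell in several comparisons below. Rtl1 lies at chr12:109589193-109600330 on the minus strand (GRCm38), and 6 microRNA hairpins lie on the opposite strand within it, on the strand of the maternally expressed Meg3 and Mirg. The RefSeq mature sequences of 5 of them follow, with the seed (bases 2 to 8) in capitals, and no 2 of the seeds are the same.
miR-431-5p: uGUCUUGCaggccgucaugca
miR-433-3p: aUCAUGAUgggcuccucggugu
miR-127-3p: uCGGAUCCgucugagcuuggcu
miR-434-3p: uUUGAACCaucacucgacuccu
miR-136-5p: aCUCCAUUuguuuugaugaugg
Mirg itself, at chr12:109729764-109749458 on the plus strand, holds 14 hairpins on its own strand, among them those of miR-134-5p (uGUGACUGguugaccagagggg) and miR-410-3p (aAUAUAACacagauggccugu). EU-seq counts the long precursor RNA, and mature microRNAs were not measured.

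Promoters are shown for Meg3, Peg3, Plagl1 and Peg12, which each passed in a depletion below, and for Mest, which differed between lines and cell states, a choice made after their values were seen. They are the 300 bases from 250 before to 50 after the RefSeq start, and a start within 200 bp of the counted one was found for 32 of the 44 rows. The letters searched on both strands were the core of the CTCF motif (CC, any 3 bases, AG, any 2 bases, GGC), the hexamer TGCCGC of the imprint reader ZFP57, and the YY1 core AAGATGGC. The CTCF letters were in 3 of 32 member promoters (9.38%) and in 8.61% of 32851 promoters, the YY1 letters in 1 (3.12%) and in 2.75%, and TGCCGC in 10 (31.2%) and in 11.6%. The member promoters had a median of 17 CG dinucleotides against 7 for all, and TGCCGC holds one itself. Matches are in capitals in the 5 promoters below (GRCm38, 5′ to 3′ on the gene's strand), and a match is a description of letters only.
Meg3, chr12:109540746-109541045, plus strand: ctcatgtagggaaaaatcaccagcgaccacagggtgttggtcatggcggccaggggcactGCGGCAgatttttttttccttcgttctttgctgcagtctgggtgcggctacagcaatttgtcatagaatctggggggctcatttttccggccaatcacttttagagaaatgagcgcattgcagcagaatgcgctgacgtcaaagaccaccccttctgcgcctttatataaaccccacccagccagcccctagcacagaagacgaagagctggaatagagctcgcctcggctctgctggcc
Peg3, chr7:6730370-6730669, minus strand: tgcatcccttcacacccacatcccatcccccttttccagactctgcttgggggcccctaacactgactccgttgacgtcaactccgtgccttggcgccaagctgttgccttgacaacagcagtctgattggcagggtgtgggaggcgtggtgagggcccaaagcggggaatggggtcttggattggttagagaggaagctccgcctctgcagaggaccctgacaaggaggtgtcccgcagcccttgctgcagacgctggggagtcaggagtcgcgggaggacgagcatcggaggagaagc
Plagl1, chr10:13090582-13090881, plus strand: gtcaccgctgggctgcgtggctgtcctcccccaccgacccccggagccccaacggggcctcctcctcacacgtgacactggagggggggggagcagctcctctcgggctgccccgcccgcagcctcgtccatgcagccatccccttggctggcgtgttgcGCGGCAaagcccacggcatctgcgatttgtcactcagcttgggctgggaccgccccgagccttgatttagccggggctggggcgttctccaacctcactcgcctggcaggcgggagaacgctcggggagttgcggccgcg
Mest, chr6:30737800-30738099, plus strand: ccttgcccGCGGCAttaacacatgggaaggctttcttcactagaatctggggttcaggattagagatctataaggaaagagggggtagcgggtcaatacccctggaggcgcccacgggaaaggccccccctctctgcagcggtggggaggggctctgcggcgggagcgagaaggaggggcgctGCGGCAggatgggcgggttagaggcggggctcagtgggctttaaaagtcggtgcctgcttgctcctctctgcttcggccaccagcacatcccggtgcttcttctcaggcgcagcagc
Peg12, chr7:62464461-62464760, minus strand: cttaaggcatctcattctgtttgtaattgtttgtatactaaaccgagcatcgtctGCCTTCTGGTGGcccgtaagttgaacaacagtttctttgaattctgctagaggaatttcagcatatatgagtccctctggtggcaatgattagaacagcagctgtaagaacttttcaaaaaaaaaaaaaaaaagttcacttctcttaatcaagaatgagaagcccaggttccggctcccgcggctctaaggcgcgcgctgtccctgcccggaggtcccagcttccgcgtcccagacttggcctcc
The CTCF letters of Peg12 stand on the opposite strand, and Dio3 and Gnas were the other members whose promoters held them. Peg3 and Usp29 start 162 bp apart on opposite strands, so that their promoter windows share 263 bp, and Peg10 and Sgce start 102 bp apart on opposite strands.

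The untreated lines differed in the level of many imprinted genes. In YF-AA against CTCF-AID nonstranded controls, 19 of 34 tested members passed, with adjusted p under 0.05 and at least 1.3-fold in the edgeR quasi-likelihood test, of which 13 were higher and 6 lower, against 38.2% of all genes tested. In the first set of RAD21-AID controls against the same CTCF-AID controls it was 23 of 35, 18 higher and 5 lower, against 54.1% of all genes. In dN/dC against the stranded CTCF-AID controls it was 13 of 33, 8 higher and 5 lower, against 19.5% of all genes, and this count was 21 without either stranded CTCF-AID control and 7 or 8 without one of the dN/dC controls. These 3 comparisons share or split the same CTCF-AID line, and library set and line cannot be told apart. The Ctcf mutant lines came from single picked colonies.

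Plagl1, a zinc finger regulator of the imprinted network, was at 14.1 and 15.3 CPM in nonstranded CTCF-AID controls, 127 and 129 CPM in YF-AA controls and 103 and 97.8 CPM in the first set of RAD21-AID controls. In stranded libraries it was at 16.8 and 36.5 CPM in CTCF-AID and at 220 and 207 CPM in dN/dC. CTCF-AID cells were the lowest in each pairing with no overlap, and the log2 differences were 3.09 (SE 0.1) for YF-AA, 2.92 (SE 0.11) for RAD21-AID and 2.99 (SE 0.35) for dN/dC, with adjusted p of 4.7e-12, 4.1e-14 and 0.0065. Mest was at 106 and 93.1 CPM in YF-AA and 36.3 and 33 CPM in RAD21-AID, and the log2 differences to CTCF-AID were 3.3 (SE 0.13) and 1.97 (SE 0.14), and 3.33 (SE 0.33) for dN/dC. Peg3, a zinc finger protein acting in growth and maternal behaviour, was higher than in CTCF-AID in all 3, by 1.56 (SE 0.15), 1.38 (SE 0.15) and 2.14 (SE 0.3) on the log2 scale, and so were Snrpn, a splicing protein of the Prader-Willi region, and Zrsr1, a U2AF-related splicing factor. Peg10, a retrotransposon-derived gene needed for the placenta, was at 8.06 and 7.68 CPM in CTCF-AID, 78 and 76.5 CPM in YF-AA and 6.36 and 5.73 CPM in RAD21-AID. It was thus higher in YF-AA by 3.25 on the log2 scale (SE 0.13, adjusted p = 2.9e-11) and in dN/dC by 2.94 (SE 0.51, adjusted p = 0.017), while the value of -0.24 (SE 0.21) for the first RAD21-AID set did not pass. The larger set of the same line had Peg10 between 18.3 and 21.9 CPM, above both CTCF-AID values, and was not tested against them.

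Other members were lower in the 3 line comparisons than in CTCF-AID. Mirg, the long precursor of the microRNA cluster above, was at 271 and 281 CPM in nonstranded CTCF-AID controls, 163 and 152 CPM in YF-AA, 128 and 122 CPM in the first RAD21-AID set, and 54 and 59.3 CPM in dN/dC, where the stranded CTCF-AID controls had 293 and 231 CPM. Grb10, an adaptor that restrains growth factor signalling, was lower in all 3 lines by 0.83, 0.81 and 1.92 on the log2 scale, with adjusted p of 4.3e-05, 4.4e-07 and 0.0036. Slc22a18, a transporter of the Kcnq1 domain, was at 4.67 and 5.37 CPM in nonstranded CTCF-AID controls and at 0.738 and 0.78 CPM in YF-AA. Its log2 differences were -2.73, -1.68 and -3.51. H19, the maternally expressed RNA that opposes growth, had no count in either stranded CTCF-AID control and 3.62 and 2.35 CPM in dN/dC. That is at least 29.5-fold higher when the CTCF-AID group is set to 3 counts, a floor that covers counting error only. H19 was tested only through the dN/dC controls, and such members bear on the counts of higher and lower members in the line comparisons. The 2 control sets of the RAD21-AID line also stood apart from each other, with Plagl1 at 103 and 97.8 CPM in the first set and between 42.5 and 49.8 CPM in the larger one, and Meg3 at 186 and 208 CPM against 295 to 351 CPM. Mirg was at 128 and 122 CPM against 207 to 249 CPM, so that the larger set reached the range of the stranded CTCF-AID controls. The difference between the sets was not tested.

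Most of the tested members had higher levels of nascent RNA in NPCs than in mESCs. Against the larger set of RAD21-AID mESC controls, 34 of 41 tested members passed, 30 higher and 4 lower in NPCs, against 74.5% of all genes, of which 40.8% were higher and 33.7% lower. The median log2 difference of the members was 1.23, and that of all genes tested was 0.11. Imprinted genes outside the member list did not share this: of 17 tested, 8 were higher and 7 lower. Their median log2 difference was 0.19. A member that is near 0 in mESCs could be tested only because NPCs transcribe it. Batch and cell type cannot be told apart here, and in bulk libraries more cells of a type cannot be told apart from more RNA per cell.

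H19 was at 692 and 867 CPM in the NPC controls and between 0 and 0.29 CPM in the 12 mESC controls, with a median of 0.13 CPM. Igf2, its paternally expressed neighbour and a fetal growth factor, was at 274 and 338 CPM in NPCs and at no more than 0.196 CPM in mESCs. In the 12 mESC controls together H19 had 22 counts and Igf2 had 10, against 30617 and 12020 in the 2 NPC controls. The ratios of the depth-scaled sums were 6620 for H19 (95% exact interval 4370 to 10600) and 5720 for Igf2 (3110 to 11900), where the intervals cover counting error only and overlap. Sgce, a sarcoglycan, was at 128 and 124 CPM against 2.54 to 4.78 CPM, Peg3 at 651 and 730 CPM against 17.3 to 20.7 CPM, Peg10 at 548 and 576 CPM against 18.3 to 21.9 CPM and Mest at 1210 and 1260 CPM against 44.5 to 52.5 CPM. Neither cell state overlapped the other for any of them, and the log2 differences were 5.27, 5.2, 4.83 and 4.77. Magel2, a ubiquitin ligase cofactor of the hypothalamus, differed by 4.24 (SE 0.22) and Osbpl5, a lipid transfer protein, by 3.96 (SE 0.07). Per kb of gene body, H19 had a mean of 298 CPM per kb in NPCs, followed by Mest with 119, Peg10 with 42.5 and Mirg with 32.9 CPM per kb. In the mESC controls the Rtl1 interval led with 13.9 CPM per kb, before the tetraspanin Cd81 with 12.6, Mirg with 11.8 and Meg3 with 10.9 CPM per kb, and the SDs of 0.82, 0.635, 0.605 and 0.598 show that Cd81 and Mirg, and Mirg and Meg3, lay close to their spread.

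The 4 members lower in NPCs were Ddc, the enzyme that makes dopamine and serotonin from their precursors, Slc22a18, Snrpn and Zrsr1. Slc22a18 had 21 and 14 counts in the NPC controls, a mean under the count filter. It was thus tested only through the mESC controls, which bears on the count of members lower in NPCs. Ddc was at 16 and 16.1 CPM in NPCs and between 87.4 and 101 CPM in mESCs, a log2 difference of -2.51 (SE 0.06, adjusted p = 2.2e-38). Snrpn was at 25.8 and 28.3 CPM against 43.7 to 56.1 CPM, a difference of -0.88 (SE 0.06). Dio3, the enzyme that inactivates thyroid hormone, had no count in either NPC control and 0.386 to 1.3 CPM in mESCs, and Phlda2, which limits placental growth, was at 0.0543 and 0 CPM in NPCs, so neither was tested there.

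**Figure D1:**
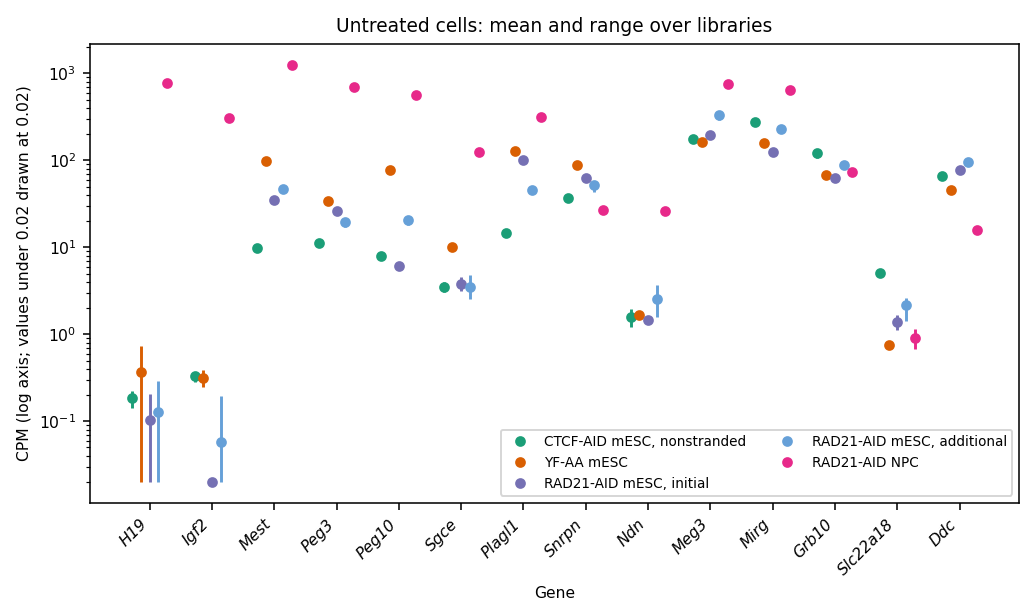
Points are the mean CPM of 14 members in the untreated libraries of each line and of NPCs, on a log axis, and bars run from the lowest to the highest library. Lines shown are CTCF-AID (nonstranded), YF-AA and both RAD21-AID sets. H19 and Igf2 lie under 1 CPM in these mESC libraries and between 274 and 867 CPM in NPCs, while Plagl1, Mest and Peg3 are lowest in CTCF-AID cells.

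Loss of RAD21 in mESCs lowered Meg3, Mirg and the Rtl1 interval of the Dlk1-Dio3 cluster, whose other member Dio3 was too low to be tested, and Peg10. In the larger set, 4 of 36 tested members fell and 5 rose, which is 25% against 12.3% of all genes tested, of which 4.84% fell and 7.44% rose, and the same counts were obtained with batch as a term, within batch CC53 alone and with the replicate number as a block. Meg3, the maternally expressed long RNA of the cluster, had 295, 340 and 351 CPM as the lowest, median and highest control and 174, 211 and 219 CPM after IAA. Mirg had 207, 231 and 249 CPM in controls and 111, 122 and 127 CPM after IAA, and the Rtl1 interval 130, 159 and 162 CPM and 73.7, 79.3 and 85 CPM. All 12 treated libraries lay below all 12 controls for each of the 3, and the log2 changes were -0.68 (SE 0.03), -0.93 (SE 0.02) and -0.95 (SE 0.03), with adjusted p of 1.5e-28, 6.4e-37 and 2.9e-35. Peg10 had 18.3, 20.9 and 21.9 CPM in controls and 8.12, 9.55 and 10.9 CPM after IAA. It fell by 1.10 on the log2 scale (SE 0.05, adjusted p = 4.4e-26), again with no overlap, and was the one member past 2-fold, as were 0.845% of all genes.

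The 5 members that rose in the larger set had low levels, at most 11.7 CPM in any library. Among them, Zim1 and Cdkn1c had control means under the filter of 20 counts. They could thus be tested only through their treated libraries, which bears on the count of rises. Slc22a18 had 1.44, 2.19 and 2.62 CPM in controls and 2.06, 3.18 and 4.84 CPM after IAA, a log2 change of 0.61 (SE 0.11, adjusted p = 8.6e-06). Cdkn1c, a maternally expressed inhibitor of the cell cycle, had 0.716, 1.13 and 1.59 CPM and 0.861, 1.55 and 1.92 CPM, a change of 0.49 (SE 0.13, adjusted p = 0.002). In both the ranges of the arms overlapped. Usp29, a ubiquitin protease transcribed away from Peg3, had 5.43, 6.72 and 7.53 CPM and then 7.1, 9.3 and 11.7 CPM, and rose by 0.47 (SE 0.07, adjusted p = 8.3e-08). Sgce had 2.54, 3.25 and 4.78 CPM and then 3.09, 4.62 and 5.46 CPM, and rose by 0.44 (SE 0.1). Zim1, a zinc finger gene beside Peg3, had 0.724, 1.16 and 1.5 CPM and then 1.1, 1.59 and 2.37 CPM, and rose by 0.44 (SE 0.14). The arms overlapped in these 3 genes as well. Peg3 itself had 17.3, 20 and 20.7 CPM in controls and 21.3, 24.3 and 27 CPM after IAA, with no overlap, and its change of 0.33 (adjusted p = 4e-10) stayed under 1.3-fold. Grb10 had 84.5, 89.1 and 97.6 CPM and then 63.5, 70.2 and 74.9 CPM, also with no overlap and with a change of -0.33 (adjusted p = 2.1e-17). Peg10 and Sgce, whose starts are 102 bp apart, thus moved in opposite directions.

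The first RAD21-AID set, with 2 libraries per arm, had 5 of 34 members lower and none higher, 14.7% against 4.74% of all genes, of which 2.61% fell and 2.13% rose. Meg3 went from 186 and 208 CPM to 137 and 131 CPM (log2 change -0.54, SE 0.08, adjusted p = 8.9e-11), the Rtl1 interval from 57.5 and 62.9 CPM to 35.9 and 40 CPM (-0.66, SE 0.09), and Mirg from 128 and 122 CPM to 91.6 and 99 CPM (-0.39, SE 0.08). Grb10 went from 58.2 and 66 CPM to 42.3 and 44.4 CPM (-0.51, SE 0.09, adjusted p = 8e-07). Peg10 went from 6.36 and 5.73 CPM to 3.2 and 4 CPM (-0.73, SE 0.25, adjusted p = 0.042). No arm overlapped its controls in these 5. The count was 3 without control replicate 1 or treated replicate 1, where Mirg and Peg10 no longer passed, with Mirg at -0.35 and -0.33.

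**Figure D2:**
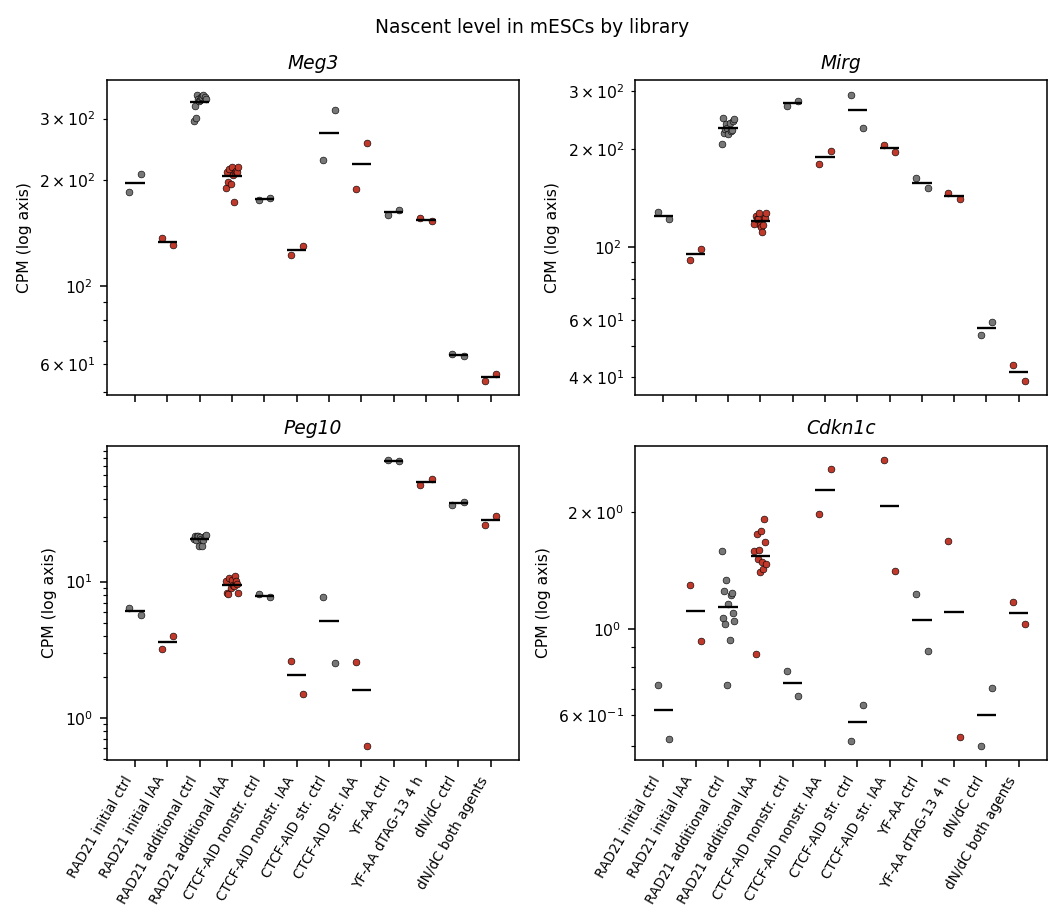
Points are single mESC libraries (controls grey, treated red), bars are group means and the y axis is CPM on a log scale, for Meg3, Mirg, Peg10 and Cdkn1c across the control and treated groups of each line. Meg3, Mirg and Peg10 lie lower after RAD21 loss in both RAD21-AID sets without overlap, and Cdkn1c lies between 0.514 and 0.778 CPM in CTCF-AID controls and between 1.41 and 2.72 CPM after IAA.

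In NPCs the loss of RAD21 lowered Zim1, Magel2, Usp29, Plagl1 and Peg3 most, and of the members that fell in the mESC sets Grb10 fell here too. The 4 neuron markers summed to 272 and 274 CPM in controls and to 216 and 230 CPM at 4 h, with Rbfox3 at 22.3 and 23.7 CPM and then 13.7 and 13.9 CPM, while Tubb3 was at 23.4 and 24.3 CPM and then 26.5 and 30.8 CPM. The part of these cells in the falls below was not tested. At 4 h, 8 of 40 tested members fell and 1 rose, 22.5% against 16.7% of all genes, of which 10.5% fell and 6.2% rose. Zim1 was at 11.5 and 12.3 CPM in controls, 6.31 and 8.66 CPM at 2 h and 4.13 and 3.64 CPM at 4 h. It fell by 0.72 (SE 0.17) at 2 h and by 1.63 (SE 0.15) at 4 h on the log2 scale, where the adjusted p was 0.025 and 3.9e-10. Usp29 was at 79.3 and 78 CPM, 48.9 and 43.1 CPM and 34.3 and 35.1 CPM, with changes of -0.78 (SE 0.07) and -1.2 (SE 0.06). Peg3 was at 651 and 730 CPM, 505 and 618 CPM and 365 and 361 CPM, and it fell by 0.94 (SE 0.04, adjusted p = 8.4e-18) at 4 h, while the 2 h change of -0.31 did not pass. The 3 genes adjoin each other on chromosome 7, and in none of them did a treated library reach the controls.

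Magel2 and Plagl1, outside the Peg3 domain, fell in NPCs too. Magel2 was at 7.17 and 7.95 CPM in controls, 4.65 and 4.78 CPM at 2 h and 2.75 and 2.67 CPM at 4 h, and fell by 0.7 (SE 0.18) and by 1.49 (SE 0.18), where the adjusted p was 0.03 and 1.1e-07. Plagl1 was at 304 and 329 CPM, 220 and 276 CPM and 170 and 158 CPM, and fell by 0.97 (SE 0.04, adjusted p = 4.8e-18) at 4 h. Neither gene overlapped its controls at either time. Grb10 went from 73.4 and 72.6 CPM to 50.9 and 52.6 CPM at 4 h and fell by 0.51 (SE 0.05), and Ppp1r9a, a scaffold of dendritic spines, went from 92.6 and 91.4 CPM to 68.1 and 72.7 CPM and fell by 0.4 (SE 0.05). H19 went from 692 and 867 CPM to 599 and 577 CPM and fell by 0.42 (SE 0.05). Nap1l5, a relative of histone chaperones that lies inside Herc3, went from 7.55 and 7.42 CPM to 11.5 and 10.5 CPM and rose by 0.54 (SE 0.13, adjusted p = 0.00074). No library of one arm reached the other in these 4 genes. Herc3 covers 100% of Nap1l5 on the opposite strand. In CTCF-AID controls Nap1l5 was under the filter, with means of 0.871 CPM in nonstranded and 0.0246 CPM in stranded libraries. The NPC titles do not name stranded libraries, and which strand the Nap1l5 counts come from was not tested. H19 no longer passed without control replicate 2 (-0.26), nor did Ppp1r9a without treated replicate 1 (-0.34). Ndn and Mkrn3, close to Magel2, had 4 h changes of 0.06 and 0.05. In the Dlk1-Dio3 domain Meg3, Mirg and the Rtl1 interval had 0.16, -0.08 and -0.09, and none of these changes was past 1.3-fold.

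Earlier times held fewer calls. At 1 h, where counting stopped 90 kb into a gene, 0 of 39 members passed in edgeR against 5.09% of all genes, while 15 had an unadjusted p under 0.05 and DESeq2 called 0. Without the fold threshold 12 passed, led by Peg10 with 0.32 (SE 0.04) and Copg2, a coatomer subunit, with -0.36 (SE 0.06). The share of all genes at that setting is not given here, so the 12 are no result about the members. At 2 h, 3 fell (Usp29, Zim1 and Magel2) and 2 rose, 12.5% of 40 against 9.34% of all genes, of which 6.98% fell and 2.36% rose. The risers were Peg10, at 548 and 576 CPM in controls and 802 and 947 CPM at 2 h (0.63, SE 0.1), and Cdkn1c, at 7.71 and 10.6 CPM against 12 and 18.6 CPM (0.68, SE 0.22, adjusted p = 0.047). The 2 libraries at 2 h differ, and the calls depended on which of them was left out. Without replicate 1 and without replicate 2, Usp29 changed by -0.86 and -0.71 and Peg10 by 0.76 and 0.49. Peg10 at 4 h was at 683 and 662 CPM, a change of 0.24 that stayed under 1.3-fold. The 3 times share the same controls.

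**Figure D3:**
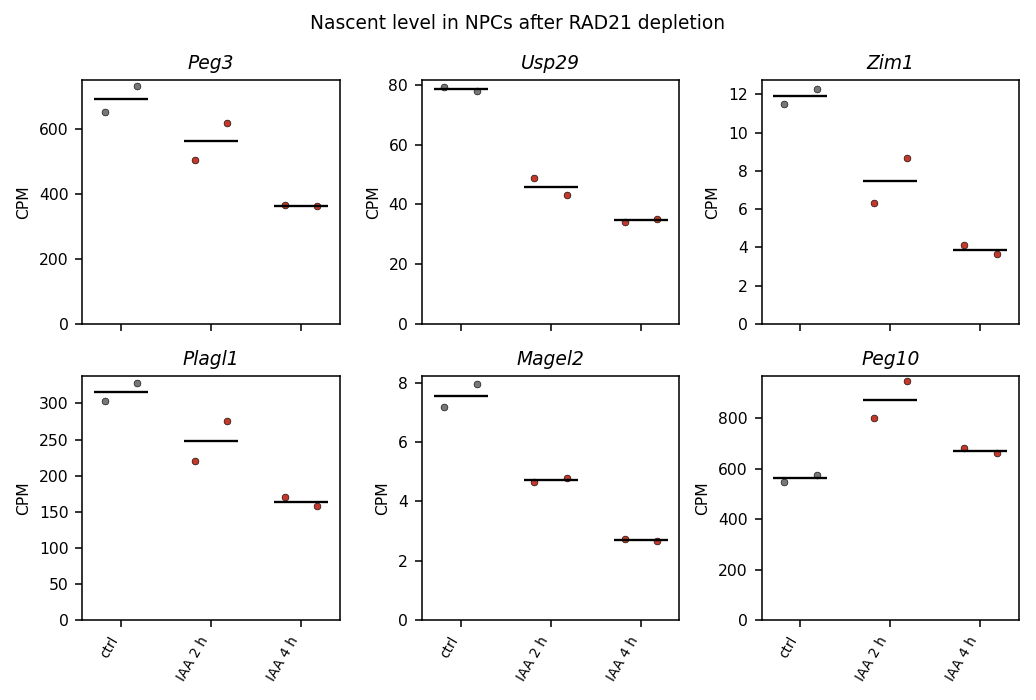
Points are single NPC libraries of the control, 2 h and 4 h groups and bars are group means, with CPM on the y axis, for Peg3, Usp29, Zim1, Plagl1, Magel2 and Peg10. The first 5 fall from control to 4 h in both libraries, and Peg10 lies above its controls at both times.

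The response to RAD21 loss at 4 h differed between NPCs and mESCs for 11 of 41 members, 26.8% against 18.2% of all genes, by the interaction term over the NPC libraries and the larger mESC set. The response was lower in NPCs for Zim1 by 2.06 on the log2 scale (SE 0.22), Usp29 by 1.65 (SE 0.11), Peg3 by 1.26 (SE 0.06) and Magel2 by 1.19 (SE 0.39), and also for Plagl1, Mest and Sgce. It was higher in NPCs for Peg10 by 1.36 (SE 0.07) and for Meg3, Mirg and the Rtl1 interval by 0.85, 0.86 and 0.87. Zim1 and Usp29 rose in mESCs and fell in NPCs. Magel2 had at most 12 counts in any mESC library of this test, so it was tested only through the NPC libraries. Peg10, which fell by 1.10 in mESCs, was above its controls in every NPC library at 2 h and 4 h. The mESC libraries came from batches CC52 and CC53 and the NPC libraries from CC56, so batch and cell type cannot be told apart in this difference either.

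Loss of CTCF in mESCs changed 3 imprinted genes in the fit without the replicate block and 9 with it. After 6 h in CTCF-AID cells 2 of 36 tested members fell and 1 rose, 8.33% against 3.36% of all genes, of which 1.79% fell and 1.56% rose, in the edgeR fit with library type as a covariate. Peg12, a small gene of the Prader-Willi region, was at 2.19 and 1.94 CPM in nonstranded controls and 0.509 and 0.645 CPM after IAA, and at 2.78 and 2.61 CPM and then 1.6 and 1.07 CPM in stranded libraries. It fell by 1.37 (SE 0.29, adjusted p = 0.037). Mirg was at 271 and 281 CPM and then 180 and 197 CPM in nonstranded libraries, and at 293 and 231 CPM and then 205 and 196 CPM in stranded ones, and fell by 0.44 (SE 0.1, adjusted p = 0.04). Cdkn1c was at 0.778 and 0.671 CPM and then 1.97 and 2.58 CPM, and at 0.514 and 0.639 CPM and then 2.72 and 1.41 CPM, and rose by 1.73 (SE 0.32, adjusted p = 0.026). Treated and control libraries of one type did not overlap in these 3 genes, and Peg12 and Cdkn1c rest on between 5 and 53 counts per library. Cdkn1c had under 20 counts in every control and Peg12 in every treated library. By the filter, Cdkn1c was thus tested only through its treated libraries and Peg12 only through its controls. The count was 0 without any one of 5 of the 8 libraries, namely either nonstranded control, either nonstranded treated library and stranded control replicate 1.

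The replicate numbers pair the CTCF-AID libraries, and with the number as a block 9 members passed, when 14.1% of all genes did. They were Mirg, Peg12 and Cdkn1c, with changes of -0.43, -1.36 and 1.65. The others were Peg10 (-1.83, adjusted p = 3.2e-05), the Rtl1 interval (-0.69, 0.00014), Ppp1r9a (-0.71, 0.0063), Peg3 (0.55, 0.00092), Usp29 (0.66, 0.016) and Dio3 (1.75, 0.00033). Dio3 had 23, 12, 9 and 5 counts in the controls and 68, 40, 31 and 20 after IAA. Its control mean lay under the filter of 20 counts, so Dio3 was tested only through its treated libraries. Peg10 went from 8.06 and 7.68 CPM to 2.61 and 1.51 CPM in nonstranded libraries and from 7.72 and 2.51 CPM to 2.59 and 0.622 CPM in stranded ones, and was below its own-numbered control in all 4 pairs. The nonstranded libraries alone gave 7 members, Meg3 (-0.44) and Cd81 (-0.43) among them, against 6.76% of all genes. The stranded libraries alone gave 0, and 0 of all genes passed there. In nonstranded libraries Meg3 was at 176 and 178 CPM and then at 123 and 130 CPM.

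The responses to CTCF loss (6 h) and RAD21 loss (4 h) in mESCs differed for 6 of 38 members, 15.8% against 13% of all genes, with different times and lines on the 2 sides. Relative to RAD21 loss, the CTCF response was lower for Peg12 by 1.55 (SE 0.19), Slc22a18 by 0.69 (SE 0.2) and Ppp1r9a by 0.52 (SE 0.11). The response was higher for Dio3 by 1.81 (SE 0.49), Cdkn1c by 1.2 (SE 0.28) and Mirg by 0.49 (SE 0.07). In this fit each gene had a shared estimate of spread over both lines, and the pairing of the CTCF-AID libraries was not used. The SEs of Peg12, Cdkn1c and Mirg were below those of their CTCF-AID changes above, so they do not measure the CTCF-AID spread alone. Dio3 had at most 18 counts in any library of the larger RAD21-AID set. It was thus tested only through the CTCF-AID libraries after IAA. Peg12 was at 4.2 and 4.43 CPM in the first RAD21-AID controls and at 6.89 and 6.51 CPM after IAA, and at 5.51 to 8.24 CPM and then 6.3 to 8.38 CPM in the larger set. With the nonstranded CTCF-AID libraries and the first RAD21-AID set in place of these, 1 member passed and the Mirg difference turned to -0.11.

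Calls were few in the CTCF mutant lines as well. In YF-AA cells 1 of 32 members passed at 2 h (2.7% of all genes did) and 2 of 33 at 4 h (3.33% of all genes). Peg10 was at 78 and 76.5 CPM in controls, 52.4 and 44.7 CPM at 2 h and 50.8 and 56.2 CPM at 4 h, and fell by 0.68 (SE 0.11) and by 0.52 (SE 0.09), where the adjusted p was 1.6e-08 and 4.2e-05. Cd81 was at 139 and 139 CPM, 127 and 113 CPM and 96.5 and 103 CPM, and fell by 0.47 (SE 0.07, adjusted p = 1.1e-06) at 4 h. Neither overlapped its controls. The 2 h count was 2 without control replicate 1. Against YF-AA at 4 h, the CTCF-AID response at 6 h in nonstranded libraries was lower for Peg10 by 1.34 (SE 0.25, adjusted p = 0.012) and for the Rtl1 interval by 0.54 (SE 0.13, adjusted p = 0.043), 2 of 38 members or 5.26% against 1.44% of all genes. Times differ between these 2 lines as well.

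In dN/dC cells, loss of both CTCF forms lowered 3 of 31 members, 9.68% against 3.5% of all genes. Mirg went from 54 and 59.3 CPM to 43.8 and 39.1 CPM (-0.45, SE 0.09, adjusted p = 4e-04), Peg10 from 36.4 and 38.4 CPM to 26.2 and 30.2 CPM (-0.42, SE 0.1, adjusted p = 0.0084) and Ppp1r9a from 43.5 and 43.9 CPM to 37.5 and 27.5 CPM (-0.42, SE 0.11, adjusted p = 0.0098), all without overlap. Without control replicate 2, Mirg alone passed, and DESeq2 called 1 member. Loss of the form without the N-terminal part alone (AGB1) gave 0 of 31 in edgeR, with 7 at an unadjusted p under 0.05 and 0 in DESeq2, when 1.44% of all genes passed. Loss of the form without the C-terminal part alone (dTAG-13) gave 0 of 31, with 0 at an unadjusted p under 0.05 and 0 in DESeq2, when 0.0587% of all genes passed. Mirg was at 47.9 and 53.3 CPM after AGB1 and 57.7 and 60.6 CPM after dTAG-13, a difference of -0.22 (SE 0.08, adjusted p = 0.27). No member differed between the 2 compounds by the test of that difference in edgeR, with 3 at an unadjusted p under 0.05 and 0 in DESeq2, when 1.28% of all genes did. The 3 treatments share the same 2 controls.

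A-485 lowered most imprinted RNA in NPCs within 1 h. Of 40 tested members 24 fell and 1 rose, 62.5% against 44.5% of all genes, of which 33% fell and 11.5% rose, and the median change of the members was -0.6 against -0.11 for all genes. Changes are relative to the median of expressed genes, which had itself shifted by 0.123 on the log2 scale. With counting stopped 90 kb into a gene, Usp29 went from 79.4 and 76.8 CPM to 10.1 and 11.7 CPM (-2.98, SE 0.09, adjusted p = 1.3e-13) and Ddc from 19.6 and 19.6 CPM to 3.36 and 2.71 CPM (-2.84, SE 0.16). Asb4, a ubiquitin ligase adaptor, fell by 2.89, from 3.6 and 2.36 CPM to 0.452 and 0.421 CPM. The treated mean of Asb4 lay under the count filter, so Asb4 was tested only through the controls. This bears on the count of falls. The Rtl1 interval fell by 2.23, Igf2r, the receptor that clears IGF2, by 1.96, Mest by 1.84 and Grb10 by 1.78. Peg3, next to Usp29, went from 799 and 889 CPM to 334 and 423 CPM and fell by 1.3 (SE 0.09), so that the pair fell to unequal degrees.

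Not all members of a domain followed in A-485. H19 was at 849 and 1060 CPM in controls and 731 and 1100 CPM after A-485 (-0.21, adjusted p = 0.6), with overlap, while Igf2 went from 336 and 412 CPM to 221 and 271 CPM (-0.75, SE 0.09). Meg3 and Mirg fell by 0.65 and 0.55, and Ube3a, Snrpn, Ndn and Mkrn3 of the Prader-Willi region had changes between -0.17 and -0.04, none of which passed, while Magel2 fell by 1.43 and Peg12 by 0.65. Kcnq1 rose by 1.13 (SE 0.49, adjusted p = 0.033) from 0.2 and 1.3 CPM to 1.81 and 1.98 CPM. The lower control value, 0.2 CPM, stands for 3 counts in that library. The control mean of Kcnq1 lay under the count filter, so Kcnq1 was tested only through the A-485 libraries. This bears on the count of rises. Over the whole body the NPC controls had 274 and 266 CPM for Kcnq1, so nearly all of its count there lies past the first 90 kb of the interval.

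Over the 11 depletions of CTCF or RAD21, 18 of the 44 rows passed in at least 1 and 26 in none. Of the latter, 18 were tested in every depletion, among them Igf2r, Ube3a, the ubiquitin ligase lost in Angelman syndrome, Snrpn, Mest and Gnas, and 1 was tested in none, Ascl2, a regulator of the placenta. These counts use the CTCF-AID fit without the block, and Dio3, one of the 26, passed in it with the block. The share of all genes that passed in at least 1 depletion was not counted, so these counts are no result about imprinted genes as a group.

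**Figure D4:**
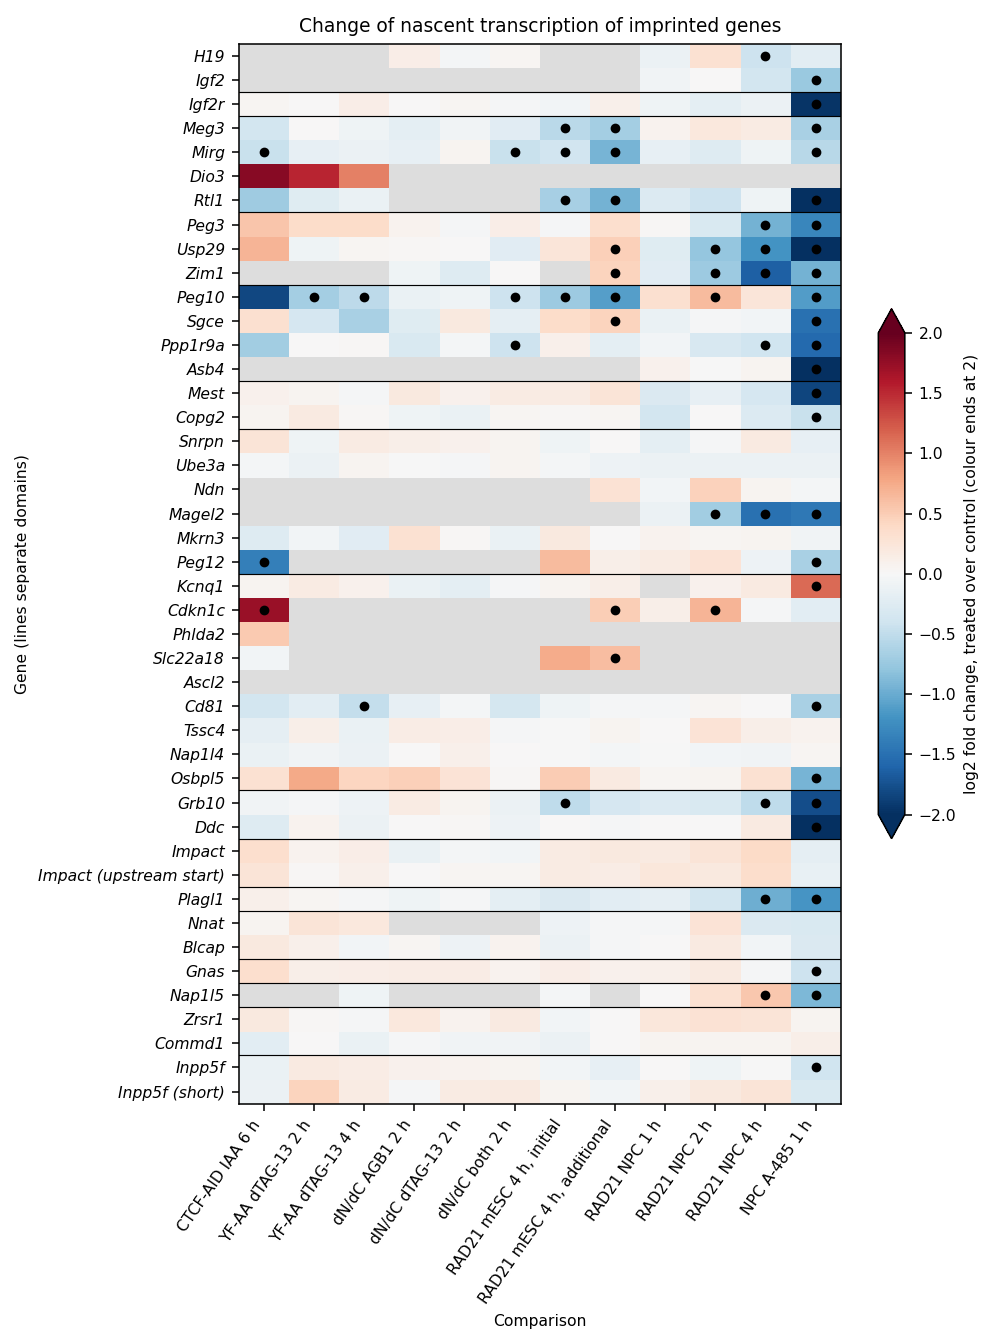
Rows are members ordered by domain, columns are the 12 depletion and inhibitor comparisons, and colour is the log2 change relative to the median of expressed genes. Dots mark adjusted p under 0.05 with at least 1.3-fold, and grey cells were not tested. Meg3, Mirg and the Rtl1 interval are lower in the mESC RAD21 columns, the Peg3 rows in the NPC 4 h column and 24 members in the A-485 column.

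Further imprinted genes, the factors that keep imprints and the neighbours of the domains were counted in the same fits. Of 26 rows of other imprinted genes, 2 of 15 tested fell and 1 rose in the larger RAD21-AID set, where 4.84% of all genes fell and 7.44% rose. In NPCs 5 of 17 fell at 4 h (10.5% of all genes) and 11 of 17 with A-485 (33% of all genes). Of 18 rows of imprint maintenance factors, 4 of 18 fell in each RAD21-AID mESC set, where 2.61% of all genes fell in the first and 4.84% in the larger. In NPCs 1 of 15 fell at 4 h, and 12 of 18 were lower in NPCs than in mESCs, as were 33.7% of all genes. After CTCF loss 1 of 17 rose (1.56% of all genes), Dppa3, which shields methylation in the early embryo, by 1.98 (SE 0.23, adjusted p = 0.0033). Of 129 rows within 200 kb of a domain, 1 of 72 tested fell after CTCF loss (1.79% of all genes), the mitochondrial ribosome gene Mrpl23 beside H19, by 3.63 (SE 0.31, adjusted p = 0.00057), and 0 rose. In the larger RAD21-AID set 3 of 74 neighbours fell and 4 rose, and in NPCs at 4 h 6 of 84 fell and 3 rose, where 12.3% and 16.7% of all genes passed.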

How the data were processed

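EU-seq labels RNA made in a short pulse, which is then captured and sequenced, so a gene-body count reads nascent transcription. According to the study's methods, the authors trimmed reads with Cutadapt, aligned them to mm10 with BWA, handled them with SAMtools (1.4 in the submitters' processing notes) and bedtools, and counted them with HTSeq over representative transcripts of GENCODE M25. The deposited values are raw counts per transcript, whole numbers that are not normalized, and for NPC 1 h and A-485 over the first 90000 bp only. Whether counting used strand is not given in the sources used here. Of 27665 transcripts, 210 had no match in GENCODE M21.

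Tests used edgeR 4.0.16 (quasi-likelihood, TMM) in R 4.3.3 with limma 3.58.1, on transcripts with a mean count above 20 in either arm, with Benjamini-Hochberg adjustment over all transcripts tested. A call needs adjusted p under 0.05 and 1.3-fold, and log2 changes are centred on the median of transcripts above 15 TPM. DESeq2 1.42.0 was an alternative, with other filters, scalings, fold thresholds, a replicate block and left-out libraries. Same-numbered CTCF-AID libraries deviated together (4 pairs, correlation of deviations 0.56 to 0.83), so the numbers pair them there. Any member could be named; values in every library are given for those that passed in CTCF-AID, in either RAD21-AID mESC set or in at least 2 NPC comparisons, and from other lists only genes past 2-fold in CTCF-AID or the larger RAD21-AID set. The members and lists were chosen with earlier results of these data known. On simulated counts the CTCF-AID fit (15611 genes) recovered 20.9% of 1.5-fold and 55.2% of 2-fold changes. The larger RAD21-AID fit (15732 genes) recovered 97% and 98.5%. The simulated libraries had no pairing and no difference between library types, so the CTCF-AID recovery describes only the fit without the block.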

Additional observations from a re-analysis of the deposited data

Results flagged for a closer look

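The values below are tests of a difference between responses to depletion, as log2 differences with adjusted p from edgeR. Between NPCs and mESCs after RAD21 loss, the NPC response was lower for Zim1 (-2.06, 3.8e-11), Usp29 (-1.65, 4.5e-19), Peg3 (-1.26, 3.5e-25), Magel2 (-1.19, 0.015), Plagl1 (-0.74, 8.4e-14), Mest (-0.58, 7.5e-13) and Sgce (-0.48, 0.00096). It was higher for Peg10 (1.36, 1.1e-25), the Rtl1 interval (0.87, 4.5e-19), Mirg (0.86, 1.5e-20) and Meg3 (0.85, 5.6e-17).

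Between CTCF loss in CTCF-AID cells and RAD21 loss in mESCs, the CTCF response was lower for Peg12 (-1.55, 9.9e-08), Slc22a18 (-0.69, 0.011) and Ppp1r9a (-0.52, 0.00053), and higher for Dio3 (1.81, 0.0059), Cdkn1c (1.2, 0.0015) and Mirg (0.49, 7.4e-07). Between CTCF-AID at 6 h and YF-AA at 4 h it was lower for Peg10 (-1.34, 0.012) and the Rtl1 interval (-0.54, 0.043). Lines, times and batches differ between the sides of each difference, and their part in it was not tested. The differences with CTCF-AID did not use the pairing of its libraries. In the fit against RAD21 loss both lines share an estimate of spread per gene, so its adjusted p do not measure the CTCF-AID spread alone. Dio3 was tested only through the CTCF-AID libraries after IAA, and Magel2 only through the NPC libraries.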

How the results depend on the processing

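Of the member counts under alternatives, 163 stayed within 1.5 times the reported count, 19 were larger and 27 smaller. The calls among all genes move with the setting too, in CTCF-AID from 0 with stranded libraries alone to 2201 with the block. Where no number for all genes stands beside a member count here, the count is no result about the members. Of the changes of members that passed, 1487 kept direction and call, 186 kept direction only and 1 reversed, that of Mirg between CTCF and RAD21 loss, at -0.11 with the nonstranded CTCF-AID and first RAD21-AID libraries, where 1 member passed. With no fold threshold, the counts were 24 in the larger RAD21-AID set, 12, 10 and 22 in NPCs at 1, 2 and 4 h, 5 for both agents in dN/dC, 13 for CTCF against RAD21 and 21 for NPC against mESC responses. At 2-fold they were 0 and 1 in the first and larger RAD21-AID sets, 0 and 3 in NPCs at 2 and 4 h, 14 for A-485, 0 in YF-AA at 2 h and at 4 h and 0 for both agents, 10 for the YF-AA and 10 for the RAD21-AID line, and 3, 1 and 5 for the CTCF against RAD21, CTCF-AID against YF-AA and NPC against mESC responses. DESeq2 gave 7 for CTCF-AID and 1 for both agents, RLE scaling 2 in YF-AA at 2 h, and testing every gene with a count 1 between AGB1 and dTAG-13.

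Without a library, the counts ran from 3 to 4 in the first RAD21-AID set, 0 to 1, 4 to 13 and 9 to 12 in NPCs at 1, 2 and 4 h, 23 to 27 for A-485, 0 to 3 for CTCF-AID, 1 to 2 and 2 to 2 in YF-AA, 0 to 0 for each agent alone and 1 to 2 for both, 17 to 21, 20 to 24 and 7 to 21 for the YF-AA, RAD21-AID and dN/dC lines, 33 to 33 for NPCs against mESCs and 0 to 1 between the agents. The cause was not tested. The replicate block gave 9 for CTCF-AID (2201 of all genes, against 524 without it). Nonstranded libraries gave 7 (1089 of all genes), stranded libraries 0 (0 of all genes) and the fit without library type 0 (288 of all genes). Elsewhere the median correlation of same-numbered deviations lay between -0.13 and 0.17, the highest in NPCs at 2 h. The block gave 4 and 9 in the RAD21-AID sets and 0, 7 and 9 in NPCs at 1, 2 and 4 h. For A-485 it gave 25, for YF-AA 1 and 2, and for dN/dC 0, 0 and 3. A crossed pairing, added after seeing the data, gave 6 in the first RAD21-AID set and 0 in NPCs at 1 h, where the correlations were -0.13 and -0.11. Members under 3 CPM rest on few counts, and the recovery above limits what the CTCF-AID fit without the block can show.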
